A study of Arabidopsis thaliana with 12 samples.

Results

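The regions described here were bound by ICU4 and by no other member of its family, and carried a peak of the co-repressor TPL. Peaks of REV, PHB, PHV, ICU4 and ATHB8 on the nuclear chromosomes were merged wherever they shared at least 1 bp. Of the 16201 merged regions, 5884 held ICU4 peaks alone, and 3570 of these overlapped a TPL peak by at least 1 bp. Those 3570 are the ICU4-only regions with a TPL peak, chosen by the presence of called ICU4 and TPL peaks and the absence of the others, so that these properties are no result. The 2314 ICU4-only regions without a TPL peak, and the 2569 regions where ICU4 overlapped another family member and TPL, served for comparison. "Only" refers to the called peaks, since a weaker signal of another protein below its caller's threshold is not listed.

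ICU4, also named ATHB15, CORONA or CNA, is 1 of 5 homeodomain leucine-zipper proteins of class III (HD-ZIPIII), a family of transcription factors. With REV, PHB, PHV and ATHB8 it acts in shoot meristem regulation, in upper-side (adaxial) organ identity and in vascular patterning, and the messages of the whole family are restrained by microRNAs of the miR165/166 group. TPL, short for TOPLESS, does not bind DNA by itself. It is brought to genes by transcription factors or adaptors such as the Aux/IAA proteins of the auxin response and NINJA of the jasmonate response, and recruits histone deacetylases that lower transcription.

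Binding was mapped by chromatin immunoprecipitation and sequencing (ChIP-seq) in Arabidopsis thaliana seedlings of ecotype Ler, 10 days old and raised in long days. There were 6 lines, named REV, PHB, PHV, ICU4, ATHB8 and TPL, and in each, per the labels, the locus of that protein was fused to a C-terminal 2xYPet-3xHA tag, so that all 6 were precipitated with the same antibody against GFP. The 12 samples were 6 immunoprecipitations and 6 inputs of the same lines, and 1 peak list per protein entered the analysis. Duplicates are mentioned in the series text, but the sources used here do not say how they went into the lists.

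No group therefore has a replicate, no comparison below carries a test, and a difference between proteins cannot be told apart from a difference between libraries. Whole seedlings were used, so binding in different cell types is averaged. Untagged plants were not among the lists used, and the labels do not settle whether the tag was placed in the native locus or in an added copy. Intervals are Wilson 95% intervals for shares and order-statistic 95% intervals for medians; they cover counting error only. Fold enrichment is the peak caller's ratio of signal to local background, and it was compared only within a list.

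A TPL peak was found at 41.8% of all merged HD-ZIPIII regions (6769 of 16201) and at 85.2% of the ICU4 regions shared with another HD-ZIPIII protein (2569 of 3017). Among ICU4-only regions the share was 60.7%, which is the choice of regions itself and is given as a description. It was much alike on the 5 chromosomes, from 59.4% on chromosome 3 (56.7 to 62.1) to 62.6% on chromosome 2 (59.3 to 65.8). The regions were narrow, with a median length of 203 bp and a range of 141 to 1145 bp, and the ICU4-only regions without TPL had a median of 183 bp.

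ICU4 signal was moderate. Median ICU4 fold enrichment was 3.09 in the ICU4-only regions with a TPL peak (quartiles 2.79 and 3.55, range 1.82 to 7.09). It was 2.79 in those without TPL (quartiles 2.54 and 3.09) and 4.05 in the shared regions (quartiles 3.29 and 5.32), so the 3 groups differed in their middles but overlapped widely. The TPL peaks they fell in, counted once per region, had higher medians than TPL peaks at large. Their median TPL fold enrichment was 4.24 (quartiles 2.81 and 6.33), against 3.22 (quartiles 2.4 and 5) over all 12785 TPL peaks and 6.26 at the shared regions. Median TPL peak length was 824 bp, 564 bp and 1204 bp in the same order, and a wider peak is more easily overlapped.

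The choice of a 1 bp overlap put few regions near its limit. The smallest overlap was 1 bp, at a region inside PSBO2, which encodes a subunit of the oxygen-evolving complex of photosystem II. The next were 4 bp inside AT3G23750 and 7 bp inside ARA12, a subtilisin-like protease gene. Just on the other side, regions inside AT1G54200, LPPgamma and RIC7 missed a TPL peak by 2, 5 and 5 bp. Overlap was nearly complete for most: 3021 regions (84.6%) lay wholly inside TPL peaks, 3387 (94.9%) had their ICU4 summit inside one, and 157 (4.4%) were covered over less than 50% of their length.

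Most ICU4 summits, the positions of highest signal, were inside genes. Of the 3570 summits, 2340 (65.5%, 64 to 67.1) lay inside a protein-coding gene, 1113 (31.2%, 29.7 to 32.7) lay outside but within 2000 bp of one, and 117 (3.28%, 2.74 to 3.91) lay farther away. ICU4-only regions without TPL were placed differently. Of their summits 81.5% (79.9 to 83.1) were inside genes, 9.25% (8.13 to 10.5) were outside within 2000 bp, and 9.2% (8.09 to 10.5) were farther away. The shared regions with TPL had 58.5% inside genes and 36.4% nearby. None of these intervals overlapped between the groups with and without TPL. Strand was not used here, so the side of the gene, start or end, is not given.

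**Figure D1:**
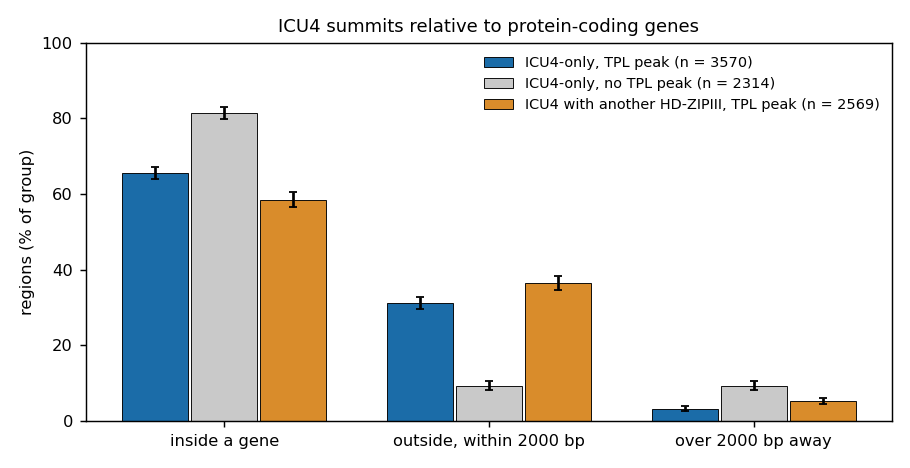
Percentage of regions (y axis) whose ICU4 summit lay inside a protein-coding gene, outside but within 2000 bp, or over 2000 bp away, for 3 groups of ICU4 regions; bars give the share and error bars the Wilson 95% interval. ICU4-only regions with a TPL peak stood between the other groups inside genes (65.5% against 81.5% and 58.5%), and 31.2% of them lay just outside genes against 9.25% of those without TPL.

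Summits outside genes were nearer to a gene than in the other groups. Taken at any distance, their median distance to the gene was 372 bp (319 to 422, 1230 summits), against 1962 bp (1483 to 2445, 427 summits) without TPL and 535 bp (488 to 596) in the shared regions. Among those within 2000 bp alone, a limit that bounds the distance, the medians were 291 bp (263 to 334), 532 bp (430 to 614) and 430.5 bp (381 to 485). Inside genes, the summits were near the ends: the median distance to the nearer gene end was 366 bp (352 to 379), against 447 bp without TPL and 417 bp in the shared regions. Within the gene body, 55.7% (53.7 to 57.7) of inside summits fell in the outermost 20% of the gene at either end, against 47.5% (45.2 to 49.7) and 43.7% (41.3 to 46.3). Gene-poor sequence, with fewer than 10 genes within 50 kb to each side, held 22 of the regions (0.616%) and 197 of those without TPL (8.51%). Summits inside pseudogenes, transcribed ones included, numbered 12 (0.336%, 0.192 to 0.587) and 122 (5.27%, 4.43 to 6.26).

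Position and strength went together. When the ICU4-only regions with TPL were divided by ICU4 fold enrichment into 4 strength classes of near-equal size, the share inside genes was 78.7% (75.8 to 81.4) in the weakest, 72.7% and 61.9% in the next, and 49.7% (46.4 to 52.9) in the strongest. All 5884 ICU4-only regions were divided at their own quartiles, with 1236, 1706, 1471 and 1471 regions per class because tied values stayed together. Of those just outside genes, a TPL peak was present at 69.4% (100 of 144) in the weakest class and at 90.9% (518 of 570) in the strongest. Inside genes these shares were 45.2% and 77.4%. Over 2000 bp from a gene they were 3.12% (4 of 128, 1.22 to 7.76) and 75.6% (59 of 78, 65.1 to 83.8), the widest gap of the 3 positions. The TPL overlap defined the regions, so these shares are descriptions.

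ICU4 and TPL summits lay close together. The median distance was 109 bp (100 to 118), with quartiles of 31 and 394 bp and a range of 0 to 4345 bp. It was 57 bp with ICU4 peaks at or above their list's median fold enrichment, 60 bp with a −log10 q of at least 5, and 62 bp with TPL peaks no wider than 1000 bp. With TPL peaks at or above their list's median fold enrichment it was 121 bp (101 to 140). In comparison it was 66 bp (59 to 72) in the regions shared with another HD-ZIPIII protein. In 1257 regions (35.2%, 33.7 to 36.8) the summits were at most 50 bp apart, in 923 (25.9%) above 50 and up to 200 bp, in 672 (18.8%) above 200 and up to 500 bp, and in 718 (20.1%) farther. Up to 50 bp, the shared regions had 45% (43 to 46.9). Since the distance cannot exceed what the TPL peak's length allows, it was also set against that length, and the median was 15.7% of the TPL peak (14.6 to 17.3) against 7.01% (6.41 to 7.86) in the shared regions.

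The summit distance depended on where the region lay. For ICU4 summits inside genes its median was 204 bp (185 to 222), for those outside within 2000 bp it was 37 bp (34 to 41), and for those farther away it was 40 bp (31 to 57). Both summits were outside genes in 1145 regions (32.1%), with a median distance of 35 bp, and both were inside in 1828 (51.2%), with 132 bp. In 512 regions (14.3%) the ICU4 summit was inside a gene and the TPL summit outside, 538 bp apart in the median, within TPL peaks of 1374 bp. The reverse, ICU4 outside and TPL inside, was found in 85 regions (2.38%). Where both lay inside the same gene, the ICU4 summit was the one farther from the gene ends in 1218 of 1719 regions (70.9%, 68.7 to 73). Where both lay outside the same gene, the ICU4 summit was the nearer in 504 of 1055 (47.8%, 44.8 to 50.8).

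**Figure D2:**
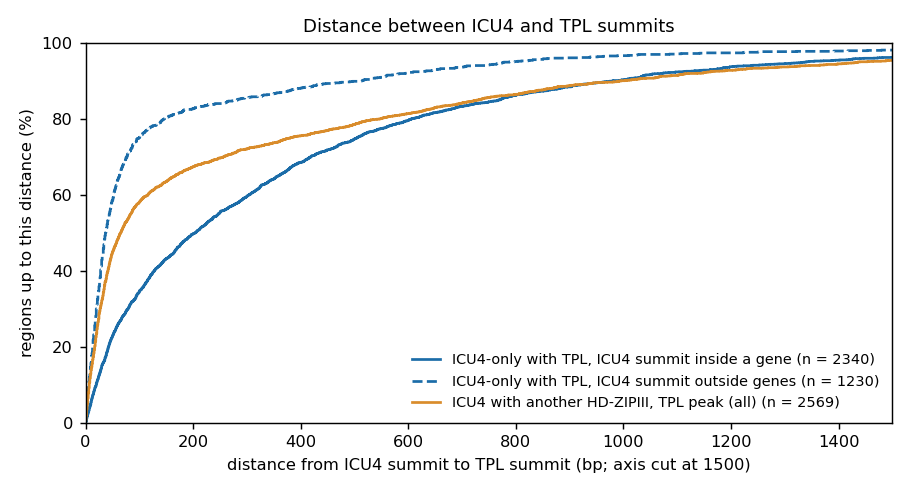
Cumulative percentage of regions (y axis) by distance from the ICU4 summit to the TPL summit in bp (x axis, linear, shown to 1500 bp), for ICU4-only regions with TPL inside genes (solid blue) and outside genes (dashed blue) and for ICU4 regions shared with another HD-ZIPIII protein and TPL (orange). The curve for summits outside genes rises first, with 59% of those within 2000 bp of a gene at 50 bp or less, and the curve for summits inside genes rises last, with 22.9%.

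Summits were closer where ICU4 was stronger. From the weakest to the strongest class of ICU4 fold enrichment the median distance was 218, 153, 79 and 44 bp, and the share within 50 bp was 20.8%, 26.2%, 39.7% and 53.3%. The TPL peaks were about equally long in the 4 classes, with medians of 851, 788, 818 and 848 bp. Median TPL fold enrichment was 3.74, 3.84, 4.26 and 5.15. How exactly the summit of a weak peak is placed was not tested.

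**Figure D3:**
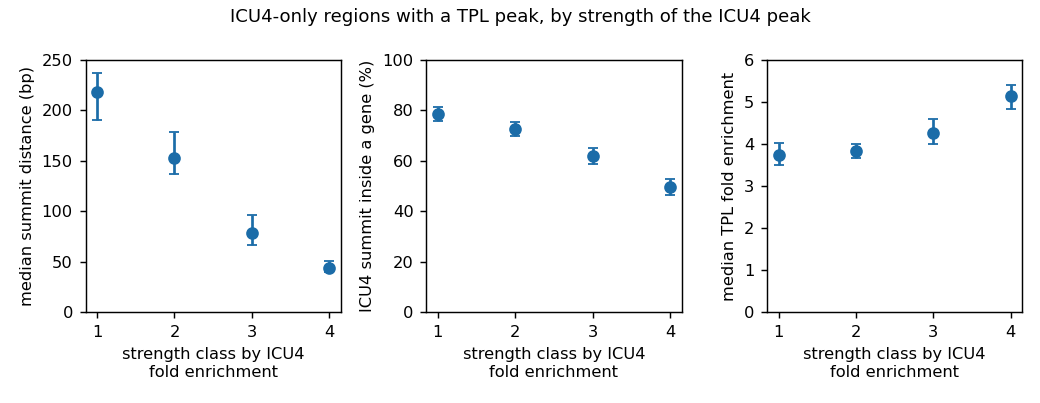
ICU4-only regions with a TPL peak in 4 classes of ICU4 fold enrichment (x axis, weakest to strongest); the panels give the median ICU4 to TPL summit distance (bp), the share of ICU4 summits inside a gene (%) and the median TPL fold enrichment, with 95% intervals. Distance went from 218 to 44 bp and the share inside genes from 78.7% to 49.7%, while TPL fold enrichment went from 3.74 to 5.15.

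Although no other HD-ZIPIII peak overlapped these regions, some had one nearby. The median distance to the nearest peak of REV, PHB, PHV or ATHB8 was 4640 bp (4287 to 4968), against 6295 bp (5807 to 6754) without TPL. Within 1000 bp, 24.8% (23.4 to 26.2) had such a peak against 15.8% (14.4 to 17.4). For a PHB peak the shares were 15.2% against 6.18%, for PHV 12.5% against 5.53% and for REV 11.4% against 7.87%. ATHB8 did not show such a difference, with 2.89% (2.38 to 3.49) against 3.5% (2.83 to 4.33), and these intervals overlapped. The lists differ in length, so shares are compared between groups and not between proteins.

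The same TPL peak reached a region of another HD-ZIPIII protein in 726 cases (20.3%, 19 to 21.7). This share was 6.47% when peaks up to 500 bp apart were merged and 10.6% with a −log10 q of at least 5 in every list. These 726 had a median summit distance of 560.5 bp within TPL peaks of 1933 bp. In the other 2844 the TPL peak covered ICU4-only regions alone, its median length was 703 bp, and the summits were 74 bp apart. Of the regions with summits at most 50 bp apart 6.44% shared their TPL peak in this way, and of those over 500 bp apart 57.2%. Seen from TPL, 3123 of its 12785 peaks (24.4%) overlapped an ICU4-only region; 2747 of them held 1, 317 held 2, 44 held 3, 12 held 4 and 3 held 5.

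At individual loci the summits of the 12 strongest ICU4 peaks mostly lay outside genes and close to the TPL summit. Those outside were from 58 to 2043 bp away from the nearest gene. SNRK2.3 (AT5G66880), which encodes a protein kinase activated in abscisic acid signalling, had a region on chromosome 5 at 26709850 to 26710182 on TAIR10, 230 bp outside the gene. Its ICU4 fold enrichment was 6.71 and its TPL fold enrichment 9.33, with the summits 21 bp apart and the nearest other HD-ZIPIII peak, of PHB, 21494 bp away. The highest ICU4 value of all, 7.09, was at chromosome 1, 29360944 to 29361245, in a 4757 bp TPL peak whose summit lay 1617 bp off. Its nearest gene, AT1G78070, was 2043 bp away, and a PHV peak was 1067 bp away. CRR2 (AT3G46790), coding for a chloroplast protein of the pentatricopeptide repeat family, had a region 60 bp outside the gene on chromosome 3 at 17233978 to 17234295, with an ICU4 fold enrichment of 6.49, a TPL fold enrichment of 2.26 and summits 1 bp apart. FAP1 (AT3G63170), for a fatty-acid-binding protein of the chloroplast, had values of 5.95 and 2.63 and a distance of 18 bp. PAP3 (AT1G14700), a purple acid phosphatase gene, was the exception among the 12 highest in having its summit inside the gene, 444 bp from the TPL summit. High ICU4 signal thus went with TPL signal from low to high.

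Where TPL was strongest, ICU4 values spread widely, from 2.32 to 4.94 at the 8 regions with the highest TPL fold enrichment. The highest TPL fold enrichment, 15.5, was inside GRF8 (AT4G24150), a growth-regulating factor gene, at chromosome 4, 12536828 to 12537147; ICU4 stood at 4.69 and the summits were 75 bp apart. WRKY47 (AT4G01720), a WRKY transcription factor gene, had a TPL fold enrichment of 13.4, an ICU4 fold enrichment of 4.94 and a summit distance of 12 bp at chromosome 4, 743991 to 744265, 661 bp outside the gene. In contrast IAA2 (AT3G23030), an Aux/IAA repressor of the auxin response, had a TPL fold enrichment of 14 but an ICU4 fold enrichment of 2.32, a summit distance of 798 bp and a PHV peak 11 bp away. GSTU13 (AT1G27130), coding for a glutathione S-transferase, had 13.6 for TPL and 2.43 for ICU4, and the summits were 419 bp apart. DFL2 (AT4G03400), of the GH3 family of acyl amido synthetases, and its neighbour AT4G03410 lay under one 2582 bp TPL peak with a fold enrichment of 14.6, which also reached regions of other HD-ZIPIII proteins. The ICU4 summit inside AT4G03410 was also 44 bp from a transfer RNA gene, AT4G03405. SAUR15 (AT4G38850), a small auxin-up RNA gene, lay in a TPL peak of 5032 bp, 1254 bp from its summit. That TPL summit was nearest to another gene, AT4G38840, at 190 bp. Of these 8 highest TPL values, 2 were at regions whose summits lay within 100 bp.

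Summits fell on the same base in 9 regions. The ones with the highest ICU4 signal lay 591 bp outside cICDH (AT1G65930), for the cytosolic isocitrate dehydrogenase, and 79 bp outside ANT1 (AT3G11900), an amino acid transporter gene. Their ICU4 fold enrichments were 4.97 and 3.93, and the TPL values 8.83 and 7.19. One bp separated the summits beside NF-YA6 (AT3G14020), a subunit of the CCAAT-binding NF-Y complex, beside XLG2 (AT4G34390), an extra-large G protein gene, and beside ADC2 (AT4G34710), the arginine decarboxylase gene of polyamine synthesis. All 5 of these regions lay outside their genes, from 37 to 869 bp away.

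**Figure D4:**
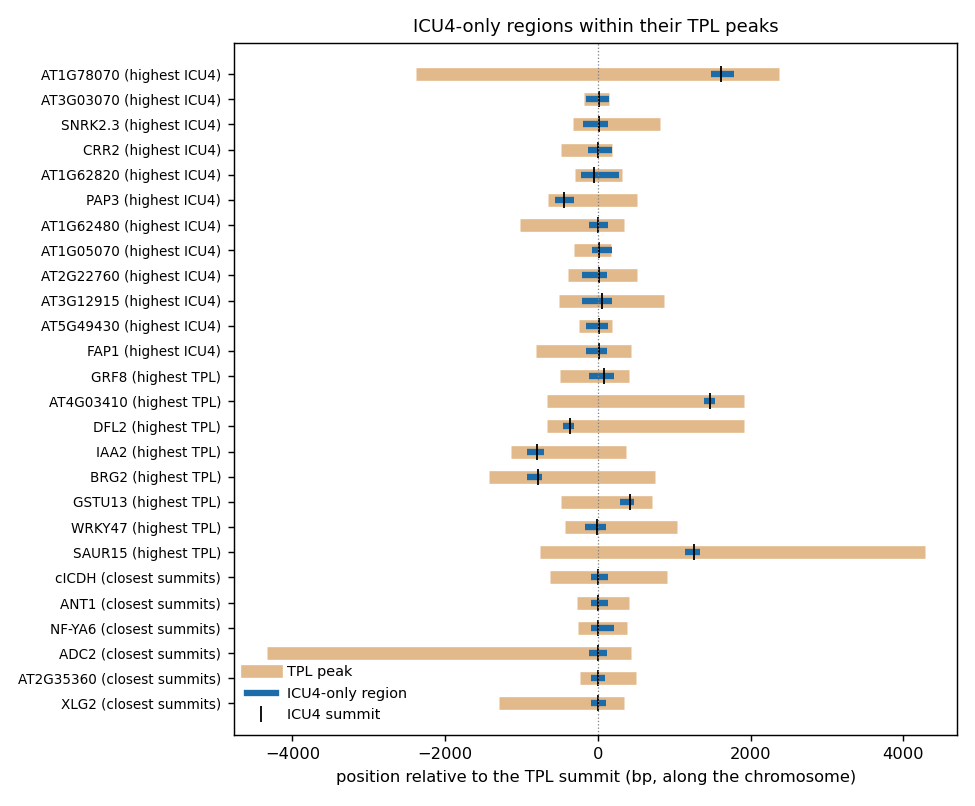
Extents of ICU4-only regions (blue, ICU4 summit as a black tick) and of their TPL peaks (tan), each drawn in bp from the TPL summit at 0 along the chromosome. Shown are the 12 regions with the highest ICU4 fold enrichment, the 8 with the highest TPL fold enrichment and 6 with close summits. Those 6 have the closest summits among regions in the strongest of 4 classes by both ICU4 and TPL fold enrichment. Most of the first set sits at the TPL summit, whereas those at IAA2, BRG2 and SAUR15 lie 798, 787 and 1254 bp from the TPL summit.

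Each region was assigned to the protein-coding gene nearest to its ICU4 summit if that gene lay within 2000 bp, which named 2903 genes, 10.6% of the 27444 protein-coding genes. With ICU4 peaks at or above their list's median fold enrichment alone 1502 genes were named, and with every gene within 2000 bp counted, 5131. For the ICU4-only regions without TPL the share was 6.92% (1899 genes). A single region was given to 2457 of them, 366 had 2, and 80 had 3 or more. These genes were longer than average, with a median of 2301 bp against 2078 bp for all genes, and longer genes offer more sequence. Another HD-ZIPIII protein had a peak at 27.5% (25.9 to 29.2) of them, against 13.8% of all protein-coding genes. A region shared by ICU4, another HD-ZIPIII protein and TPL was found at 581 (20%), so for these genes ICU4 and TPL also met with other family members, at another place. An ICU4-only region without TPL was found at 231 (7.96%).

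The genes with most regions were TIC (AT3G22380) and AT3G50650, with 6 each. TIC, the TIME FOR COFFEE gene of the circadian clock, had 5 inside the gene and 1 outside it by 137 bp, on chromosome 3 between 7912896 and 7919996. Its ICU4 fold enrichments were 4.43, 3.93, 3.67, 3.29, 3.04 and 2.91. They lay under 2 TPL peaks of 3771 and 1438 bp, whose summits were 1 and 7 bp from the strongest ICU4 summit in each. AT3G50650 had 5 of its 6 under 1 TPL peak of 4059 bp. AT2G30600 had 5, all inside the gene under a single TPL peak of 3473 bp, and BPS3 (AT4G01360), a gene of the BYPASS family, had 4 within a TPL peak of 1791 bp. Neighbouring regions under 1 TPL peak share that peak's TPL values and are not independent.

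Gene functions were read from 40 lists of 686 genes. Of these genes 151 (22%) had an ICU4-only region with TPL, against 10.6% of all protein-coding genes. The lists hold signalling, transcription factor and growth genes, which TPL peaks reach often, so that the count of genes with any TPL peak is given beside several of them. Over all protein-coding genes that share was 33.7%, and it was 22.0% for any ICU4 peak. Whether the 22% of the lists goes beyond how often TPL or ICU4 peaks reach these genes in general was not tested. Counts in each list are small and the intervals wide, and many of the intervals held the 10.6% of all protein-coding genes.

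Gibberellin signalling had the highest share, with 6 of 9 genes for DELLA repressors and gibberellin receptors (66.7%, 35.4 to 87.9), all 9 of which had a TPL peak. RGA1 (AT2G01570) and GAI (AT1G14920), which encode DELLA growth repressors, had ICU4 fold enrichments of 3.55 and 3.24 inside the genes, within TPL peaks of 2218 and 3711 bp. Summits there were far apart, at 1223 and 1174 bp. RGL3 (AT5G17490), another DELLA gene, had 3.17 and a distance of 777 bp, and GID1B (AT3G63010), a gibberellin receptor gene, had 3.8 and 1479 bp. RGA1 had 3 regions, and GAI and GID1B 2 each, of which only the one with the highest ICU4 value is described. In these strongest regions of the 4 genes the ICU4 and TPL summits thus lay apart under long TPL peaks. The ICU4 summit was 67.3%, 71.6%, 36.6% and 43.1% of the way along the TPL peak at RGA1, GAI, RGL3 and GID1B. A PHV or REV peak lay between 270 and 1589 bp away.

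Abscisic acid signalling had 5 of 9 clade A protein phosphatases of type 2C (55.6%, 26.7 to 81.1), which hold the pathway off, 3 of 14 receptors of the PYR/PYL family (21.4%) and 2 of 15 genes of its kinases and bZIP factors (13.3%). TPL peaks were at 8, 9 and 10 of the same genes. PP2CA (AT3G11410) had 3 regions, the strongest with an ICU4 fold enrichment of 3.29 and a TPL fold enrichment of 11.2, 1597 bp from the TPL summit. HAI1 (AT5G59220) had an ICU4 fold enrichment of 3.04 and HAI2 (AT1G07430) had 2.69, and their summit distances were 10 and 754 bp. ABI2 (AT5G57050) was weaker in both proteins, at 2.52 and 1.85. PYL13 (AT4G18620) and PYR1 (AT4G17870), both receptor genes, reached 4.69 and 4.18 for ICU4, with PYL13 having its summits 29 bp apart, 861 bp outside the gene. The kinase gene SNRK2.3, described above, was the strongest of all genes in the lists.

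Other hormone lists stood between. Jasmonate genes (JAZ, NINJA and MYC) had 6 of 16, strigolactone and karrikin genes 5 of 12, ethylene genes 4 of 12, brassinosteroid genes 4 of 13 and type-A response regulators, which dampen cytokinin signalling, 3 of 10. Any TPL peak was at 14, 10, 10, 12 and 7 genes of these lists, in the same order. Of the cytokinin receptors and type-B response regulators 1 of 10 had a region. Inside WOL (AT2G01830), a cytokinin receptor gene active in vascular tissue, ICU4 stood at 5.32 and TPL at 11.9. The region lay at chromosome 2, 368839 to 369101, with its summits 2 bp apart. JAZ5 (AT1G17380), a jasmonate repressor gene, had an ICU4 fold enrichment of 4.81, 668 bp from the TPL summit. That TPL summit was nearest to another gene, UBP1B, at 5 bp, and a PHB peak lay 524 bp from the region. EIL1 (AT2G27050), for a transcription factor of the ethylene response, had 2.77 with a TPL value of 7.94 and a distance of 6 bp. DET2 (AT2G38050), an enzyme gene of brassinosteroid synthesis, had 3.8 and 15 bp.

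In the auxin lists, carriers (PIN and AUX/LAX) had 4 of 12 genes, TIR1/AFB receptors 2 of 6, Aux/IAA repressors 7 of 29 (24.1%, 12.2 to 42.1) and the ARF transcription factors 2 of 22 (9.09%, 2.53 to 27.8). Their genes with any TPL peak numbered 9, 6, 20 and 12. LAX3 (AT1G77690), an auxin influx carrier gene, had one of the stronger ICU4 peaks, 5.17, 109 bp outside the gene on chromosome 1 at 29203434 to 29203662, and 32 bp from the TPL summit. IAA16 (AT3G04730) had an ICU4 fold enrichment of 4.45 and SHY2 (AT1G04240) had 3.42, the second with its summits 1 bp apart. ETT (AT2G33860), an ARF that acts in lower-side (abaxial) identity, had 3.31 inside the gene and a distance of 18 bp. TIR1 (AT3G62980), the auxin receptor gene, lay under a TPL peak of fold enrichment 11.7 that also reached a REV peak 148 bp away, and its own ICU4 value was 2.56.

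Among the homeodomain families, HD-ZIPI genes had 6 of 17 (35.3%), HD-ZIPII genes 4 of 10 (40%), HD-ZIPIV genes 3 of 16 and the HD-ZIPIII genes 1 of 5. That 1 was PHV (AT1G30490) itself, whose region lay 915 bp outside the gene on chromosome 1 at 10795122 to 10795310, with an ICU4 fold enrichment of 3.87, a TPL fold enrichment of 5.6 and summits 22 bp apart. HAT2 (AT5G47370), HAT3 (AT3G60390) and HB-2 (AT4G16780), HD-ZIPII genes tied to shade and auxin responses, had ICU4 values of 3.48, 2.66 and 2.91. HB-7 (AT2G46680), an HD-ZIPI gene that responds to abscisic acid, had 3.29 and a distance of 21 bp. HDG2 (AT1G05230), an epidermal HD-ZIPIV gene, had 4.05 and 47 bp.

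Light signalling genes had 9 of 25 (36%, 20.2 to 55.5) and circadian clock genes 5 of 17 (29.4%, 13.3 to 53.1). Any TPL peak was at 21 and 12 of these genes, and any ICU4 peak at 14 and 8. PIF4 (AT2G43010), coding for a growth-promoting bHLH factor degraded in light, had an ICU4 fold enrichment of 4.18 and a TPL fold enrichment of 7.64 inside the gene, 24 bp apart. HY5 (AT5G11260), a bZIP factor gene of light-grown development, had 3.62, 350 bp from the TPL summit and 89 bp from a PHB peak. CCA1 (AT2G46830), a MYB-related repressor gene of the clock, had 3.84 and a TPL value of 10.6, with 14 bp between summits, 190 bp outside the gene. PRR7 (AT5G02810) had its ICU4 summit 132 bp outside the gene and ELF4 (AT2G40080) 40 bp, both clock genes, and their summit distances were 38 and 41 bp. At these 3 clock genes the nearest other HD-ZIPIII peak was 10619 bp away or more. RVE8 (AT3G09600), also a clock transcription factor gene, differed, with an ICU4 fold enrichment of 2.79 and summits 475 bp apart. A PHB peak lay 516 bp away, and the TPL peak reached a region of another HD-ZIPIII protein. A transfer RNA gene for serine, AT3G09595, was 132 bp from that ICU4 summit, nearer than RVE8 at 330 bp.

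Growth and metabolism lists differed in their shares. Trehalose-phosphate synthase genes had 5 of 11 (45.5%, 21.3 to 72), with TPS8 (AT1G70290) carrying 4 regions and TPS11 (AT2G18700) and TPS7 (AT1G06410) 3 each. Any TPL peak was at 7 of the 11 and any ICU4 peak at 5. The regions of TPS8 and of TPS11 lay under 1 TPL peak each, of 4159 and 3690 bp, and 2 of the 3 at TPS7 under a TPL peak of 2148 bp. Aquaporins had 7 of 22 (31.8%), with DELTA-TIP (AT3G16240), of the vacuolar membrane, highest at an ICU4 fold enrichment of 4.94. The TPL summit of that region lay 1009 bp off, inside another gene, PnsB3. Expansins had 7 of 24 (29.2%, 14.9 to 49.2). Cellulose synthases had 2 of 10 (20%, 5.67 to 51) and xyloglucan-modifying XTH genes 4 of 33 (12.1%, 4.82 to 27.3). The last 2 intervals held the 10.6% of all protein-coding genes. CESA6 (AT5G64740), for a primary-wall cellulose synthase, had an ICU4 fold enrichment of 4.74 and summits 2 bp apart inside the gene. NRT1.1 (AT1G12110), a nitrate transporter and sensor gene, had 4.05, a TPL value of 9.24 and a distance of 8 bp, at 1883 bp from the gene.

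For the developmental lists most often linked to HD-ZIPIII proteins, the intervals held the 10.6% of all protein-coding genes. They also did so for other lists, among them the PYR/PYL, TIR1/AFB, ARF, HD-ZIPIV, WRKY and XTH genes. Leaf polarity genes had 0 of 11 (up to 25.9%), although 7 of them had a TPL peak. ETT, which had a region and acts in abaxial identity, was counted in the ARF list instead. Shoot meristem and boundary genes had 2 of 16 (12.5%, 3.5 to 36). These were KNAT6 (AT1G23380), a KNOX homeobox gene, and AGO10 (AT5G43810), an Argonaute gene that opposes the family's microRNAs. Their ICU4 fold enrichments were 3.24 and 2.82, with summit distances of 32 and 81 bp. Vascular patterning genes had 2 of 17 (11.8%, 3.29 to 34.3). These were WOX4 (AT1G46480), a cambium homeobox gene, at 3.17 and VND7 (AT1G71930), a xylem vessel NAC factor gene, at 2.91, the second with both summits on the same base. TPL and its relatives (TPR genes) had 0 of 5 and genes of silencing and small RNAs 0 of 16, and TPL peaks were at 5 and 2 of these. Polycomb and chromatin remodelling genes had 1 of 16, BRM (AT2G46020), a SWI/SNF ATPase gene, where ICU4 stood at 4.1 and the summits were 3 bp apart.

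**Figure D5:**
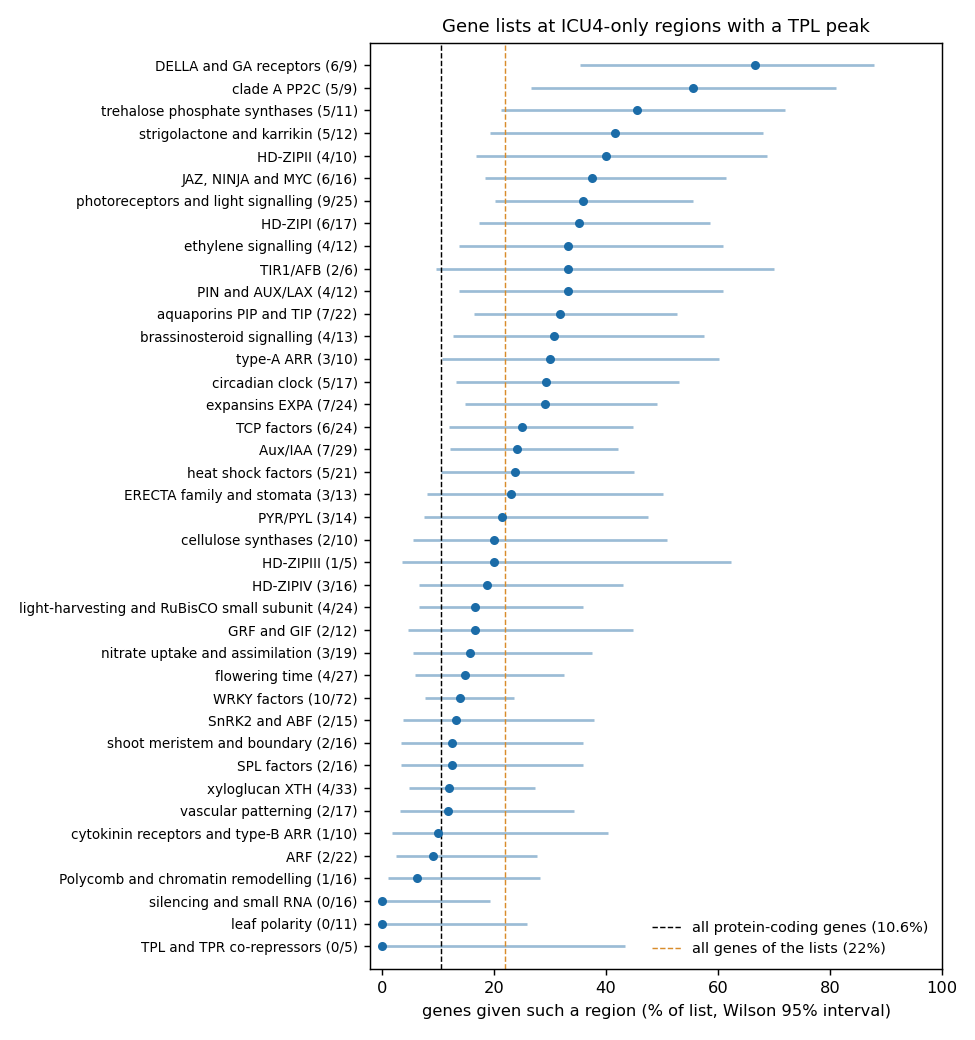
Share of the genes of each of 40 lists that were given an ICU4-only region with a TPL peak (x axis, %), with Wilson 95% intervals; counts stand beside each name, and dashed lines mark all protein-coding genes (10.6%) and all genes of the lists (22%). The gibberellin list (6 of 9) and the clade A phosphatases (5 of 9) are at the top, and leaf polarity, silencing and TPL-related genes at 0. ETT is counted among the ARF genes, not under leaf polarity.

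As a set of strongly transcribed loci, light-harvesting and RuBisCO small-subunit genes had 4 of 24 (16.7%, 6.68 to 35.9). Any ICU4 peak was at 19 of these 24, any TPL peak at 21, and a peak of another HD-ZIPIII protein at 21 and an ICU4-only region without TPL at 1. WRKY factors, the longest list, had 10 of 72 (13.9%, 7.72 to 23.7), TCP factors 6 of 24 and heat shock factors 5 of 21. Among genes with a descriptive name in the gene table, protein phosphatases had 12 of 42 (28.6%), transcription factors 105 of 636 (16.5%), protein kinases 87 of 582 (14.9%) and ribosomal proteins 6 of 67 (8.96%). Over all 10494 genes with a descriptive name the share was 13.7% (13.1 to 14.4), near that of the kinases and transcription factors.

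Genes for transfer RNAs, the adaptors that carry amino acids in translation, and for small nuclear RNAs of the spliceosome were looked at after the regions had been set against every kind of gene in the table, so they were chosen with their values seen. Of 625 tRNA genes, 120 (19.2%, 16.3 to 22.5) had the ICU4 summit of an ICU4-only region with TPL within 200 bp, against 9.47% of protein-coding genes (2599 of 27444). ICU4-only regions without TPL were within 200 bp of 13 tRNA genes (2.08%, 1.22 to 3.53) and of 6.77% of protein-coding genes. Any TPL peak summit was near 45% of tRNA genes and 30% of protein-coding genes, and any ICU4 summit near 28% and 20.3%.

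The regions near tRNA genes also numbered 120, and 85 had their summit inside the tRNA gene. They covered all 20 amino acids, from 11 regions for isoleucine and 11 for lysine to 1 for cysteine. Median ICU4 fold enrichment was 3.17, median TPL fold enrichment 3.05 (2.82 to 3.34) and median summit distance 33.5 bp (27 to 58). TPL was thus weaker there than over all ICU4-only regions with TPL, at 4.24, and than over those outside genes within 2000 bp, at 5.26. The summits were closer than the overall 109 bp, but about as close as at regions outside genes within 2000 bp, at 37 bp (34 to 41). Of the 120 summits 87.5% lay outside protein-coding genes, a median of 125 bp from the nearest, so the tRNA genes are part of the intergenic class. The strongest, at AT5G49435 for a histidine tRNA, is the region listed beside AT5G49430, on chromosome 5 at 20046674 to 20046969, with an ICU4 fold enrichment of 5.99 and a TPL fold enrichment of 3.32, 9 bp apart.

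Small nuclear RNA genes had 11 of 82 (13.4%, 7.66 to 22.4), an interval that held the 9.47% of protein-coding genes. Any TPL peak summit was near 31.7% of them and 30% of protein-coding genes, and any ICU4 summit near 23.2% and 20.3%. There were 12 regions, all with the summit inside the RNA gene. Of these 8 were at U2 genes, 2 of them at the same gene, AT3G57765. The share of U2 genes among the 82 was not counted. AT5G09585, a U2 gene on chromosome 5, had an ICU4 fold enrichment of 5.07 and a TPL fold enrichment of 3.69 at 2974911 to 2975335, with the summits 19 bp apart. Genes for microRNAs had 3 of 326 (0.920%). No list from plants without a tag was among those used, so the level of such signal at tRNA genes without the tagged protein was not tested.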

How the data were processed

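The authors used Bowtie2 and MACS2 on TAIR10, per the submitters' processing notes; versions and settings are not stated there. Peaks have a summit, a pileup, p-value and q-value columns and a fold enrichment, per the file headers. The authors' pileup is a deposited coverage signal at the summit, and was not compared. The deposited p-value and q-value columns are −log10 values. Fold enrichment, a linear ratio deposited for each peak, was compared within a list only. Every ICU4 pileup is a whole number (100%), whereas those of the other lists are mostly not (at most 1.71%); the sources used here do not describe this scaling. Depth is unknown.

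Nuclear peaks were merged at 1 bp of overlap. Positions are 1-based, on TAIR10. Where a region held several ICU4 or TPL peaks, the strongest peak of each protein was used. The gene table was RefSeq TAIR10.1, matched by locus tag, used for names and neighbours; it carries no strand, exons or sequence. Thus no sequence is printed, and the planned motif search, the nearest start site and the upstream share were not run. All 688 memberships of the 40 gene lists matched a protein-coding gene. Summits within 200 bp were used for RNA genes. Strength classes keep tied values together.

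The regions and gene lists were chosen with earlier results of these data known. Named genes are the regions with the 12 highest ICU4 fold enrichments and the 8 highest TPL values. Added to these are the 6 closest summits among regions in the strongest of 4 classes by both ICU4 and TPL fold enrichment. Further ones are up to 4 per gene list by ICU4 fold enrichment, the 5 genes with most regions, and the 3 regions on either side of the overlap limit. The text gives a subset. Alternatives were another overlap rule, merging within 500 bp, stronger peaks only, other distance limits and other gene sets. Scripts ran in Python 3.11.15 with pandas 2.3.3, numpy 2.4.6 and scipy 1.17.1, and the overlap functions were tested on simulated peaks.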

Additional observations from a re-analysis of the deposited data

Results flagged for a closer look

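The ICU4 list held 77 peaks on the organelle genomes, 75 on the chloroplast and 2 on the mitochondrial genome. The REV list held 1, on the mitochondrial genome, and the PHB, PHV, ATHB8 and TPL lists held 0. These peaks lie outside the nuclear chromosomes and none of them is among the regions described above. They were counted because they stand apart from the other lists, and whether the nuclear ICU4 peaks share what set them apart was not tested.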

How the results depend on the processing

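Of 71 alternative values, 42 moved, meaning that a count differed by over 1.5 times or that a share or median left the interval of the reported value. The other 29 did not, but they include 2675 regions when peaks up to 500 bp apart were merged, 1963 genes with a −log10 q of at least 5, and 197 genes of the lists when every gene within 2000 bp was named. With only ICU4 peaks at or above their list's median fold enrichment there were 1706 regions (76.1% of ICU4-only regions), at a median distance of 57 bp, 55.4% inside genes, 95.5% within 2000 bp, 18.5% with a shared TPL peak, a median ICU4 fold enrichment of 3.55, and 1502 genes, 83 of them in the gene lists. With TPL peaks so restricted these were 2369 regions (40.3%), 121 bp, 59.3%, 95.8%, 27.1%, 3.17 and 1898 genes. With −log10 q of at least 5 in every list they were 2345 regions (78%), 60 bp, 57.9%, 95.9%, 10.6% and 3.67. Merging peaks up to 500 bp apart gave 59%, 74 bp, 61.2% inside genes, 3.17 for ICU4 fold enrichment and 6.47% with a shared TPL peak. Requiring the ICU4 summit inside a TPL peak gave 57.6%, 95 bp and 64% inside genes, and requiring cover of 50% gave 58% and 96 bp. A limit of 1000 bp left 91.5% near a gene, and all genes of the table gave 71.1% inside and 98.1% near. Naming every gene within 2000 bp gave 5131 genes. Of the alternatives added after seeing the data, the median distance was 77 bp and the share inside genes 62.6% without regions that had another HD-ZIPIII peak within 1000 bp, 62 bp with TPL peaks no wider than 1000 bp, and 74 bp with TPL peaks that reached no region of another HD-ZIPIII protein. The causes of these moves were not tested. The nearest start site, the upstream share and the promoter motifs were not run, since strand and sequence were not used here. No paired analysis was possible because each group has 1 sample. Depth is unknown, so a peak missing from a list is no evidence of absent binding.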
